A study of Mus musculus with 16 samples.

Results

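The prosurvival genes of the BCL2 family were described here by the 7 members Bcl2, Bcl2l1, Bcl2l2, Mcl1, Bcl2a1a, Bcl2a1b and Bcl2a1d. They were chosen by name, and all 7 are listed both among the 17128 genes of the plasmacytoid dendritic cell (pDC) table and among the 17721 genes of the conventional dendritic cell (cDC) table. The RNA of splenic DCs of C57BL/6 mice, aged 6 to 8 weeks, was sequenced in 16 libraries, each from a pool of mice. Every animal carried floxed alleles of Trim33, the gene of the transcriptional cofactor TRIM33. Trim33 fl/fl mice without Cre served as WT, and in Trim33 fl/fl Itgax-Cre mice (cKO) the Cre recombinase was driven by Itgax, the gene of CD11c, so that deletion begins in CD11c-expressing cells and is not confined to 1 DC subset. All sorted cells were positive for CD11c, and pDCs were taken by SiglecH. The SiglecH- cells with MHC II were divided into cDC1s, which stain for CD24 and not for CD172a, and cDC2s, which stain for CD172a and not for CD24. Each genotype had 3 libraries for pDCs, 2 for cDC1s and 3 for cDC2s.

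Prosurvival BCL2 proteins sit on the outer mitochondrial membrane, where they hold the pore-forming effectors BAX and BAK and the BH3-only proteins that would activate them. BH3-only proteins such as BIM, the product of Bcl2l11, occupy the binding groove of the prosurvival proteins, so that the balance between these classes sets whether a cell undergoes apoptosis. DCs are short-lived, and their survival is known to rely on members of this family, among them BCL2, BCL-XL, MCL1 and A1.

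Values are in TPM, the share of a gene's transcripts among all transcripts of a library, which is scaled per transcript length and can be compared between genes. Fold changes are log2 differences of TPM + 1, cKO against WT, with the limma standard error (SE). A gene was called where its Benjamini-Hochberg adjusted p did not exceed 0.01 and its log2 fold change was 0.5 or more in size. Trim33 was lower in every cKO library than in every WT library of its subset. Its log2 fold change was -0.68 ± 0.13 in pDCs, which was not called (adjusted p = 0.0301), and it was called lower in cDC1s (-1.02, adjusted p = 3.49e-04) and cDC2s (-1.17, adjusted p = 1.26e-04). Of the 8 cDC1 markers and 8 cDC2 markers, 7 and 8 were called in the direction of their label between WT cDC1s and WT cDC2s, and the summed level of the 8 pDC markers was 17074 to 19055 TPM in pDC libraries against 130.1 to 258 TPM in cDC libraries. Depth was estimated from the spacing of low values at about 18.1 to 20.1 M reads per library.

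The Bcl2a1 genes encode A1, a prosurvival protein of hematopoietic cells, and in the mouse they are near-identical copies. Bcl2a1a lies at chr9:88956920-88962416, Bcl2a1b at chr9:89199273-89207838 and Bcl2a1d at chr9:88723288-88731850 (GRCm38). Another copy, Bcl2a1c at chr9:114330135-114330578, is no member but was added when the copies were summed. The first 90 coding bases of the 3 member copies are shown because they hold 6 of the 12 positions at which the 516-base coding sequences differ, with those positions in capitals. Sequences are from GENCODE M21 transcripts and read 5′ to 3′, at chr9:88957051-88957140 (plus strand), chr9:89199360-89199449 (plus strand) and chr9:88731630-88731719 (minus strand), each within a coding exon.
Bcl2a1a: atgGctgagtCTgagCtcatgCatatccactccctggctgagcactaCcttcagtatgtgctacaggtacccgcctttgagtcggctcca
Bcl2a1b: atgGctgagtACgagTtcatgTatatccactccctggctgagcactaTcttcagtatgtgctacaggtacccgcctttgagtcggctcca
Bcl2a1d: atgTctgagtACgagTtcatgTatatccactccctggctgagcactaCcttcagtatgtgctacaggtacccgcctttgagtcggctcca
Over the whole coding sequence, Bcl2a1a and Bcl2a1b differed at 11 bases (97.9% identity), Bcl2a1a and Bcl2a1d at 7 (98.6%), and Bcl2a1b and Bcl2a1d at 6 (98.8%). Of the 50-base words of each transcript, which is the read length, 31.0% of those of Bcl2a1a, 20.8% of those of Bcl2a1b and 20.5% of those of Bcl2a1d occurred in no other gene of the annotation. The same share was 99.9% for Bcl2, 100% for Bcl2l1 and Mcl1, and 87.9% for Bcl2l2, whose other words lie in the overlapping gene Gm20521. Another copy held 69.0% of the words of Bcl2a1a, 57.6% of those of Bcl2a1b and 79.5% of those of Bcl2a1d, and the annotated gene Gm29094 also shares words with each. Most 50-base reads of these copies can therefore match more than 1 gene, and RSEM, which the authors used, divides such reads by estimate. The copies are given below with their sum, and their separate values are uncertain.

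The regions upstream of the Bcl2a1 copies are also alike. The 8-base word GAGGAAGT, an extended form of the PU box bound by PU.1 and other ETS factors, occurred exactly 1 time on either strand in the 250 bases upstream of each of the 4 copies. At this length it matched none of the 6 upstream regions searched for Bcl2, Bcl2l1, Bcl2l2 and Mcl1, and 2.44% of all 32851 RefSeq upstream regions of that length hold it. The shorter word GAGGAA, which it contains, occurs in 23.3% of them. GAGGAA was also found 1 time each upstream of Bcl2 and Bcl2l2, and not upstream of Bcl2l1 or Mcl1. The contrast with the other members therefore depends on the length of the word. The 8-base word was chosen after the sequences were read, so the match is a description. The 30 bases around it are shown (RefSeq, GRCm38.p6, word in capitals) at chr9:88956805-88956834 (plus strand), chr9:89199114-89199143 (plus strand) and chr9:88731936-88731965 (minus strand).
Bcl2a1a upstream: cagaagaggaaGAGGAAGTggtgtgttgct
Bcl2a1b upstream: cagaagaggaaGAGGAAGTggtgtgttgct
Bcl2a1d upstream: ctgaatcagaaGAGGAAGTggtgtgttgct
The word began 104 bases before the annotated start of Bcl2a1a, 148 before that of Bcl2a1b and 104 before that of Bcl2a1d. In Bcl2a1a and Bcl2a1b another GAGGAA precedes it directly, and in Bcl2a1d it does not. A consensus NF-kB site was found in 1 of the 3 annotated Bcl2l1 upstream regions and in none of the other members, against 7.25% of all regions.

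In WT cells the members fell into a high class and a low class, and Bcl2a1 changed class between pDCs and cDCs. Mcl1, which encodes a short-lived prosurvival protein, was at 290.5 ± 22.9 TPM (SD, n = 3) in WT pDCs, 451 ± 14.5 TPM (n = 2) in WT cDC1s and 566 ± 80.0 TPM (n = 3) in WT cDC2s. The Bcl2a1 sum had a mean of 10.9 ± 2.73 TPM in WT pDCs, 1189 ± 126 TPM in WT cDC1s and 1722 ± 473 TPM in WT cDC2s. Set side by side, these WT means of the sum are 109-fold higher in cDC1s and 158-fold higher in cDC2s than in pDCs. The pDC and cDC tables were made separately and hold different genes, so this comparison carries no test. In pDCs, Mcl1 made up 82.0 to 86.5% of the summed TPM of the 7 members in WT libraries, against 25.4 to 29.2% in WT cDC1s and 21.1 to 29.3% in WT cDC2s.

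**Figure D1:**
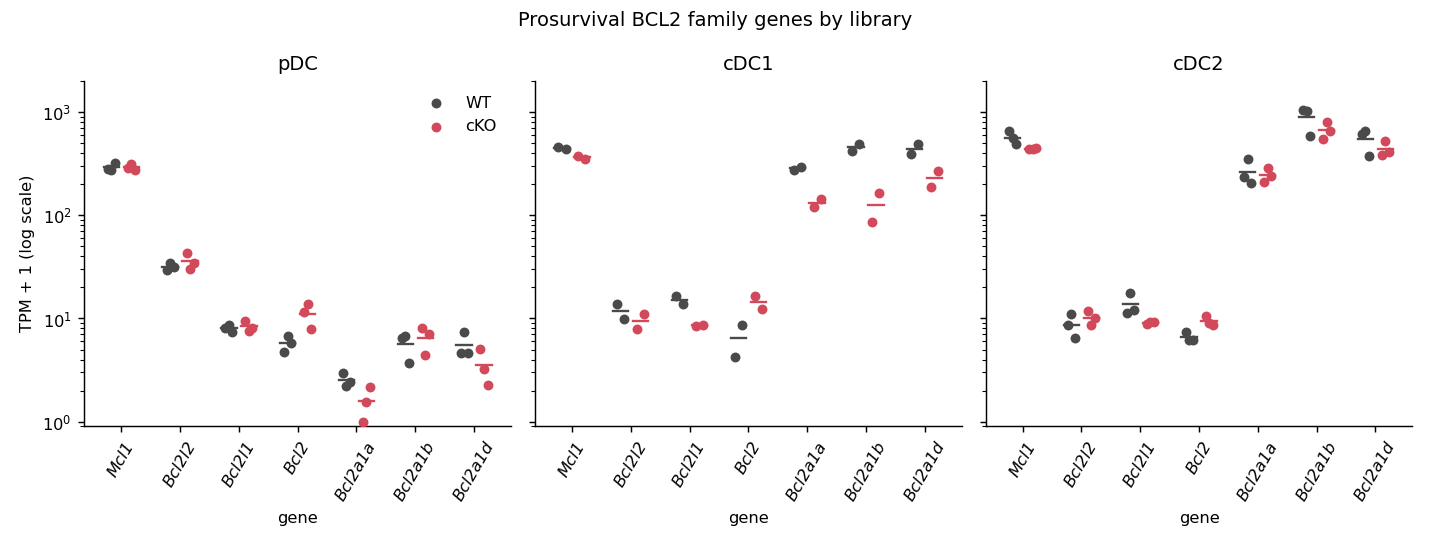
TPM + 1 on a log axis for the 7 genes in each pDC, cDC1 and cDC2 library, with WT dark and cKO red, points for libraries and short lines for group means. Mcl1 is high in every group, whereas the Bcl2a1 copies reach at most 7.13 TPM in pDCs and at least 85.6 TPM in every cDC library.

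Among the low members, Bcl2l2, which encodes BCL-W, ran against Bcl2a1. Its level was 28.5 to 33.7 TPM in WT pDC libraries and 5.42 to 12.8 TPM in WT cDC libraries. The order of mean levels in WT pDCs was Mcl1, Bcl2l2, the Bcl2a1 sum, Bcl2l1 and Bcl2, and the ranges of neighbours in that order did not overlap. In WT cDC1s the order was the Bcl2a1 sum, Mcl1, Bcl2l1, Bcl2l2 and Bcl2, again with no overlap between neighbours. In WT cDC2s the order was the same as in cDC1s, and the ranges of Bcl2l2 and Bcl2 overlapped there (5.42 to 10.0 and 5.12 to 6.44 TPM).

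Bcl2, the founding member of the family, had higher values in cKO than in WT libraries of all 3 subsets, and the increase was called in cDC1s. In WT pDCs it was at 3.77, 5.81 and 4.74 TPM, and in cKO pDCs at 10.5, 12.7 and 6.87 TPM. In cDC1s it was at 3.27 and 7.64 TPM in WT and at 15.4 and 11.4 TPM in cKO. In cDC2s it was at 6.44, 5.12 and 5.14 TPM in WT and at 9.53, 8.04 and 7.56 TPM in cKO. WT and cKO libraries did not overlap in any of the 3 subsets. Of all genes tested, 10.8% had all cKO values above all WT values in pDCs, 52.1% in cDC1s and 16.3% in cDC2s. The log2 fold change of Bcl2 was 0.91 ± 0.22 in pDCs (adjusted p = 0.0632), 1.23 ± 0.29 in cDC1s (adjusted p = 0.00711) and 0.51 ± 0.23 in cDC2s (adjusted p = 0.149), so that Bcl2 was called in cDC1s alone. The difference between the cDC1 and cDC2 effects was 0.72 ± 0.37 and did not pass the test (adjusted p = 0.215).

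The cDC1 call of Bcl2 was close to the threshold. It was lost without WT cDC1 library 1 (log2 fold change 0.72, adjusted p = 0.0391), without cKO cDC1 library 1 (1.03, 0.0680) and without cKO cDC1 library 2 (1.44, 0.0186). It was also lost without cKO cDC2 library 1, 2 or 3 and without WT cDC2 library 2 (adjusted p of at most 0.0122), which enter through the shared spread. With median-of-ratios scaling the value was 1.08 (adjusted p = 0.0183) and with quantile normalization 1.06 (0.0216), and neither was called. The call was lost as well with no filter on low values (0.0204), with the replicate block (0.0162) and with cDC1s fitted alone (0.0242). Bcl2 was called in 7 of 19 alternatives, with the same direction in all of them. The 19 include a crossed cDC1 pairing chosen after the data were seen. Because Bcl2 is abundant in lymphocytes, the T cell and B cell markers are given beside it. Summed over 5 listed T cell markers, pDC libraries held 6.85 to 9.45 TPM in WT and 14.2 to 17.8 TPM in cKO, and over 6 B cell markers 8.52 to 22.5 and 9.86 to 58.0 TPM. Most of the T cell sum in pDCs came from Cd5 (means of 5.87 and 10.5 TPM) and Lck (1.35 and 4.17 TPM). Cd3d, Cd3e and Cd3g had higher means in cKO pDCs as well, all below 1 TPM in both genotypes. In cDC1s the T cell sum was 5.19 to 6.09 TPM in WT and 6.87 to 7.14 TPM in cKO, most of it from Cd5 (means of 4.46 and 5.83 TPM). The CD3 genes Cd3d, Cd3e and Cd3g had cKO means of 53.7%, 82.9% and 33.3% of WT there, all from levels below 1 TPM. The B cell sum in cDC1s was 23.7 to 29.8 TPM in WT and 12.6 to 12.9 TPM in cKO. Most of this fall came from Ms4a1 (means of 19.5 and 6.31 TPM), and no other B cell marker had a mean above 4.07 TPM there. In cDC2s the T cell sum was 24.9 to 30.07 TPM in WT and 22.6 to 25.9 TPM in cKO, and the B cell sum 20.3 to 29.2 and 12.03 to 14.1 TPM. Ms4a1 again made up most of the B cell difference, with means of 16.9 TPM in WT and 5.35 TPM in cKO cDC2s. Of the 2 T cell markers that passed the filter none was called in any subset, and of the B cell markers none was called in pDCs and 1 was called lower in cDC1s and in cDC2s. No listed marker of either type was at 0 in all libraries of a group. The part of these markers in the Bcl2 values was not tested.

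Bcl2l1, which encodes BCL-XL, was lower in the cKO libraries of both cDC subsets, and its ranges overlapped in pDCs. In cDC1s it was at 15.6 and 12.8 TPM in WT and at 7.54 and 7.68 TPM in cKO. In cDC2s it was at 10.2, 16.9 and 11.1 TPM in WT and at 7.93, 8.31 and 8.17 TPM in cKO. The WT and cKO ranges did not overlap in either cDC subset. In pDCs, Bcl2l1 was at 7.11, 7.55 and 6.45 TPM in WT and at 8.51, 6.54 and 7.12 TPM in cKO, a range that holds all cKO cDC values, although this comparison runs across tables and carries no test. All cKO values lay below all WT values for 24.1% of tested genes in cDC1s and 19.2% in cDC2s. Bcl2l1 was called lower in cDC1s (log2 fold change -0.82 ± 0.20, adjusted p = 0.00947) and not in cDC2s (-0.55 ± 0.16, adjusted p = 0.0394) or pDCs (0.06 ± 0.12, adjusted p = 0.824). The 2 cDC effects differed by -0.26 ± 0.26 (adjusted p = 0.509), which did not pass the test. The cDC1 call was lost without any of the 4 cDC1 libraries, with adjusted p values of 0.0691 and 0.0186 without WT libraries 1 and 2 and of 0.0574 and 0.0462 without cKO libraries 1 and 2, and also without cKO cDC2 library 1, 2 or 3 (0.0144 to 0.0171). It was further lost with FPKM values (log2 fold change -0.81, adjusted p = 0.0107), with no filter on low values (0.0236), with no trend (0.0102) and with the replicate block (0.0176), so that Bcl2l1 was called in 8 of 19 alternatives.

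**Figure D2:**
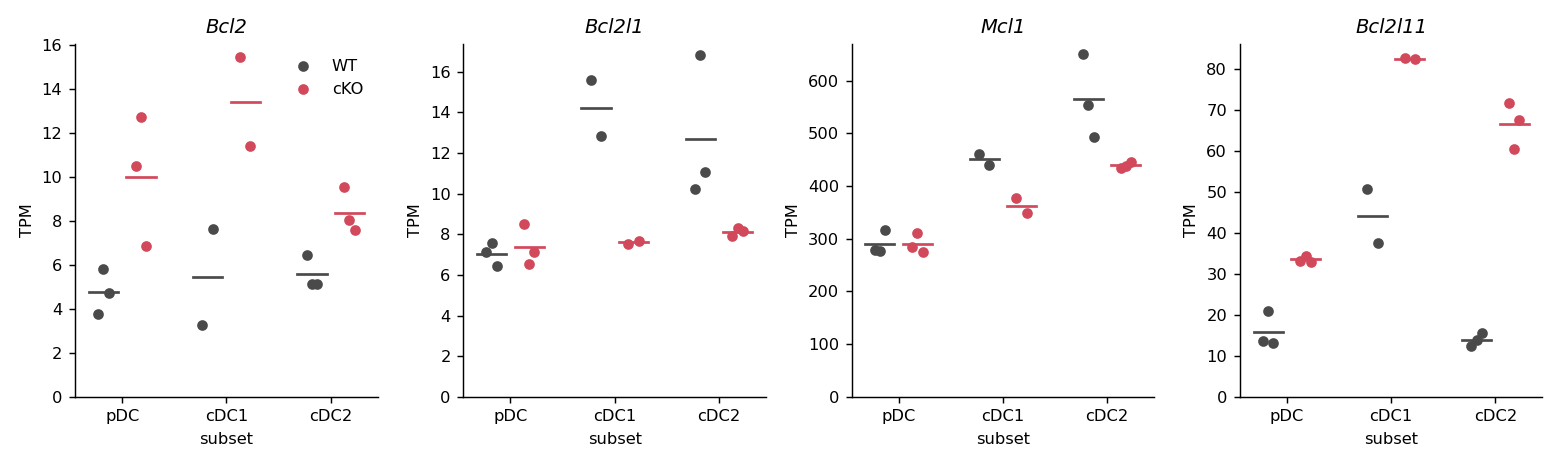
TPM of Bcl2, Bcl2l1, Mcl1 and, for comparison, the BH3-only gene Bcl2l11 in each library of the 3 subsets, with WT dark, cKO red, lines at group means and each vertical axis starting at 0. Bcl2 and Bcl2l11 are higher in every cKO group, and Bcl2l1 and Mcl1 are lower in the cKO groups of cDC1s and cDC2s with no overlap.

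Mcl1 had lower values in both cKO cDC subsets, by less than the called fold. In cDC1s it was at 462 and 441 TPM in WT and at 377 and 349 TPM in cKO. In cDC2s it was at 651, 554 and 492 TPM in WT and at 435, 438 and 446 TPM in cKO. The cKO libraries lay below the WT libraries in both subsets, as was so for 24.1% of all genes tested in cDC1s and 19.2% in cDC2s. The log2 fold changes were -0.31 ± 0.12 (adjusted p = 0.0693) and -0.35 ± 0.10 (adjusted p = 0.0362), neither of which was called. In pDCs, Mcl1 was at 278, 276 and 317 TPM in WT and at 284, 311 and 275 TPM in cKO, with a log2 fold change of -0.00 ± 0.07 that turned positive under 2 other scalings (0.03 with FPKM, 0.04 with median of ratios). None of the 4 genes listed for turnover of the MCL1 protein (Huwe1, Usp9x, Fbxw7 and Btrc) was called in any subset.

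Bcl2l2 overlapped between genotypes in all 3 subsets. The cKO values were 42.0, 29.4 and 33.5 TPM in pDCs, against 28.5, 33.7 and 30.4 TPM in WT. In cDC1s it was at 12.8 and 8.94 TPM in WT and 6.99 and 10.1 TPM in cKO, and in cDC2s at 7.73, 10.0 and 5.42 TPM and 10.8, 7.71 and 9.05 TPM. Its log2 fold changes were 0.16 ± 0.13, -0.31 ± 0.27 and 0.25 ± 0.22, and none was called (adjusted p = 0.521, 0.388 and 0.464).

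The Bcl2a1 copies had their lowest cDC values in cKO cDC1s. Summed over the 4 copies, they were at 1100.1 and 1278 TPM in WT cDC1s and at 398 and 584 TPM in cKO cDC1s, so that the cKO mean was 41.3% of the WT mean. The sum was called lower (log2 fold change -1.30 ± 0.27, adjusted p = 0.00455). Over all genes tested, the median cDC1 fold change was 0.17, and relative to it the sum was at -1.47. The sum was called in 15 of 19 alternatives, among them FPKM (-1.36), median-of-ratios scaling (-1.47) and quantile normalization (-1.33). The call was lost with no filter on low values (adjusted p = 0.0143), without WT cDC1 library 1 (-1.40, adjusted p = 0.0185), without WT cDC1 library 2 (-1.19, 0.02996) and without cKO cDC1 library 1 (-1.02, 0.0510). Each of these left-out libraries leaves 1 library in an arm that is then assumed to vary like the other groups.

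The 3 member copies, which make up nearly all of the sum, were each lower in cKO cDC1s, to different extents. Bcl2a1a was at 277 and 290.5 TPM in WT and at 119 and 144 TPM in cKO and was called lower (-1.11 ± 0.23, adjusted p = 0.00405). Bcl2a1b was at 417 and 489.5 TPM in WT and at 85.6 and 164 TPM in cKO and was called lower (-1.92 ± 0.33, adjusted p = 0.00173). Bcl2a1d was at 392 and 484 TPM in WT and at 188 and 269 TPM in cKO, which was not called (-0.95 ± 0.27, adjusted p = 0.0197). None of the 3 copies overlapped between genotypes, as was so for 76.2% of all genes tested in cDC1s (24.1% with cKO below WT). Within the sum, Bcl2a1b made up 37.9 to 38.3% in WT and 21.5 to 28.2% in cKO cDC1s, and Bcl2a1d 35.7 to 37.9% and 46.1 to 47.2%. These shares rest on how RSEM divided the shared reads. The call of Bcl2a1a was lost without any of the 4 cDC1 libraries (adjusted p from 0.0149 to 0.0427) and with no filter (0.0115), and that of Bcl2a1b without WT cDC1 library 2 (0.0124) or cKO cDC1 library 1 (0.0191).

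**Figure D3:**
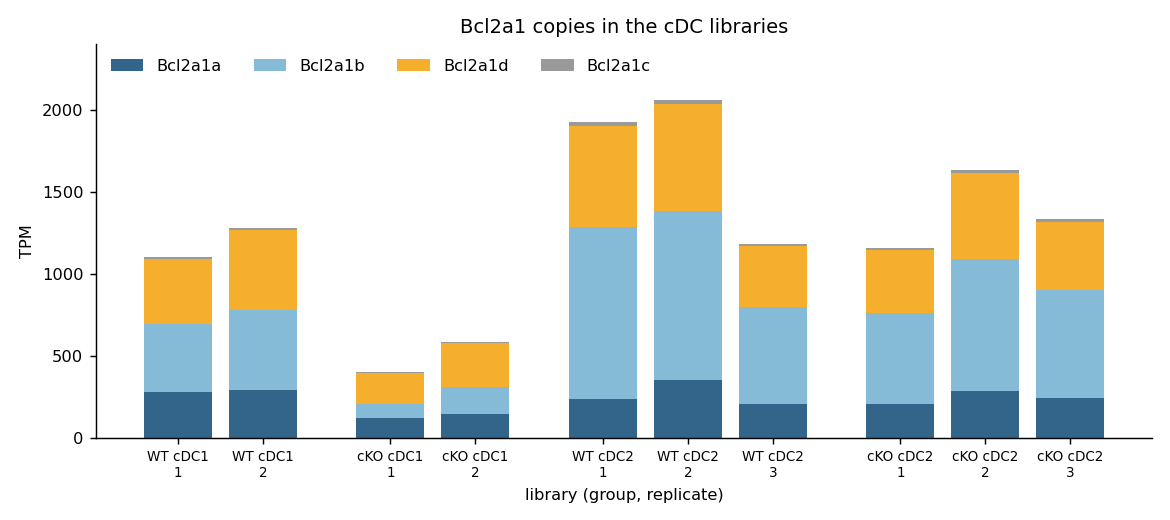
Stacked TPM of Bcl2a1a, Bcl2a1b, Bcl2a1d and Bcl2a1c in each of the 10 cDC libraries, with the vertical axis starting at 0. The bars of the cKO cDC1 libraries reach 398 and 584 TPM and those of the other cDC libraries 1100.1 to 2059 TPM.

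In cDC2s the Bcl2a1 sum was at 1925, 2059 and 1181 TPM in WT and at 1156, 1632 and 1333 TPM in cKO. The groups overlapped, since WT library 3 lay within the cKO range, and the log2 fold change of -0.30 ± 0.22 was not called (adjusted p = 0.378). Bcl2a1a was at 237, 349 and 205 TPM in WT and 207, 287 and 242 TPM in cKO. Bcl2a1b was at 1049.5, 1033 and 590.1 TPM and 552, 803 and 658 TPM, and Bcl2a1d at 616, 655 and 373 TPM and 384, 522 and 413 TPM. All 3 copies overlapped between genotypes.

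Whether the cDC1 and cDC2 effects on Bcl2a1 differed was tested in the same fit. The difference was -0.998 ± 0.354 for the sum (adjusted p = 0.0938), -1.03 ± 0.30 for Bcl2a1a (adjusted p = 0.0508), -1.54 ± 0.43 for Bcl2a1b (adjusted p = 0.0468) and -0.66 ± 0.35 for Bcl2a1d (adjusted p = 0.228). No member was called for this difference, against 2.56% of all genes tested (1.21% higher, 1.35% lower), and 2 of the 7 had an unadjusted p under 0.05. Between the subsets within a genotype, no member was called in WT (background 31.7%), with 2 at an unadjusted p under 0.05. The background split there was 1241 higher and 2371 lower, and 1815 and 1718 with median-of-ratios scaling. In cKO cells, 2 members were called, both lower in cDC1s than in cDC2s (background 28.3%, of which 14.5% higher and 13.8% lower). These were Bcl2a1a (-0.89 ± 0.21, adjusted p = 0.00609) and Bcl2a1b (-2.47 ± 0.31, adjusted p = 1.02e-04), and the sum was called as well (-1.49 ± 0.25, adjusted p = 7.94e-04), except without cKO cDC1 library 1 (-1.22, adjusted p = 0.0150). Leaving out a library moved this count over 1.5 times in 4 cases, to 1 member called without cKO cDC1 library 1 or 2 or without cKO cDC2 library 2 or 3, with Bcl2a1b the member called in each.

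In pDCs the Bcl2a1 copies were low, and Bcl2a1a was the lowest of the members. Bcl2a1a was at 1.94, 1.22 and 1.40 TPM in WT and at 0, 0.54 and 1.18 TPM in cKO, which corresponds to about 12.6, 7.99 and 9.16 reads and 0, 3.52 and 7.95 reads. Bcl2a1b was at 5.46, 5.77 and 2.67 TPM and 7.13, 3.40 and 6.04 TPM, and Bcl2a1d at 3.59, 6.45 and 3.62 TPM and 4.08, 2.25 and 1.28 TPM, or about 17.3 to 47.6 and 9.14 to 44.4 reads. The sum was at 11.3, 13.4 and 8.03 TPM in WT and 11.8, 6.51 and 8.80 TPM in cKO, and the groups overlapped. Its log2 fold change was -0.26 ± 0.23 (adjusted p = 0.574). Bcl2a1a did not overlap between genotypes, as was so for 27.5% of tested genes (16.7% with cKO below WT), and was not called (-0.74 ± 0.29, adjusted p = 0.197).

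The WT and cKO libraries of 6 members did not overlap in cDC1s and those of 3 members in cDC2s, against 76.2% and 35.5% of all genes tested. Counted over the 7 members, 4 were called in cDC1s, 1 higher (Bcl2) and 3 lower (Bcl2l1, Bcl2a1a and Bcl2a1b). Bcl2a1a, Bcl2a1b and Bcl2a1d enter the counts and medians of this paragraph as 3 members. They share reads and are not independent, so these counts and medians are descriptions. The background in cDC1s was 22.4% of 11411 tested genes, 15.8% higher and 6.56% lower. With median-of-ratios scaling the calls over all genes changed from 1806 higher and 749 lower to 1067 and 1067, and those of the members to 0 higher and 3 lower. In cDC2s the same scaling moved all calls from 410 higher and 406 lower to 578 and 379, and for the difference of effects from 138 and 154 to 100 and 281, with no member among them. The members' median log2 fold change was -0.82, beside 0.17 over all genes tested. In cDC2s no member was called against a background of 7.15% (3.59% higher, 3.56% lower), with 2 (Bcl2l1 and Mcl1) at an unadjusted p under 0.05 and a median of -0.29 beside -0.03. In pDCs no member was called against a background of 1.05% of 11299 genes (0.814% higher, 0.239% lower), with 2 (Bcl2 and Bcl2a1a) at an unadjusted p under 0.05 and a median of 0.06 beside -0.05. With the pDC libraries paired by their numbers, 335 in place of 119 genes were called and still no member, and the adjusted p of Bcl2 was 0.0118. The cDC1 count of 4 members became 1 without WT cDC1 library 1 (Bcl2a1b), 1 without WT cDC1 library 2 (Bcl2), 0 without cKO cDC1 library 1 and 1 without cKO cDC1 library 2 (Bcl2a1b), and 2 (Bcl2a1a and Bcl2a1b) without any of the 3 cKO cDC2 libraries.

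**Figure D4:**
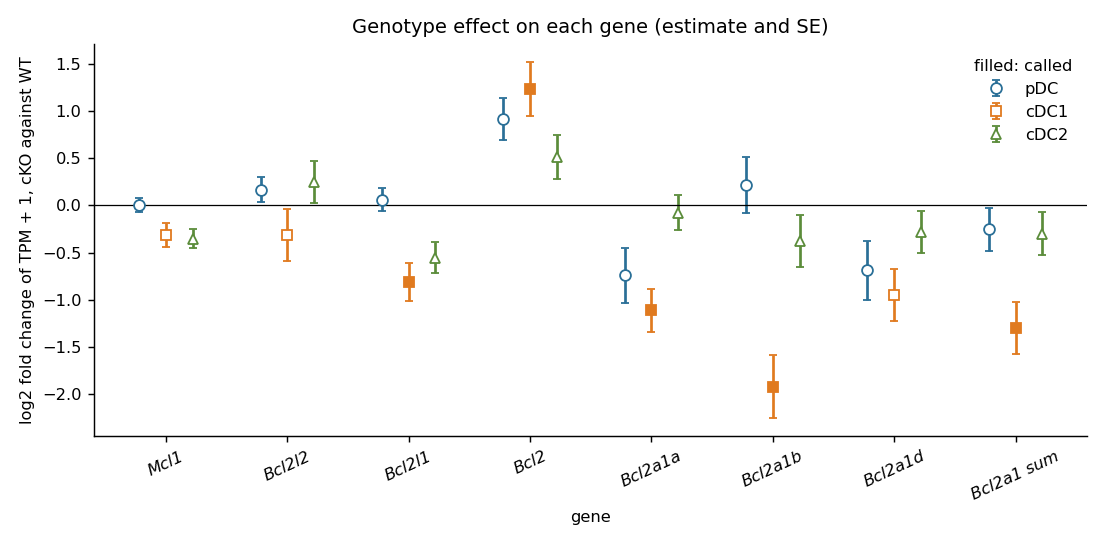
Log2 fold change of TPM + 1, cKO against WT, for each member and for the Bcl2a1 sum in pDCs, cDC1s and cDC2s, with limma standard errors as bars and filled symbols for called effects. Filled symbols appear in cDC1s for Bcl2, Bcl2l1, Bcl2a1a, Bcl2a1b and the sum.

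**Figure D5:**
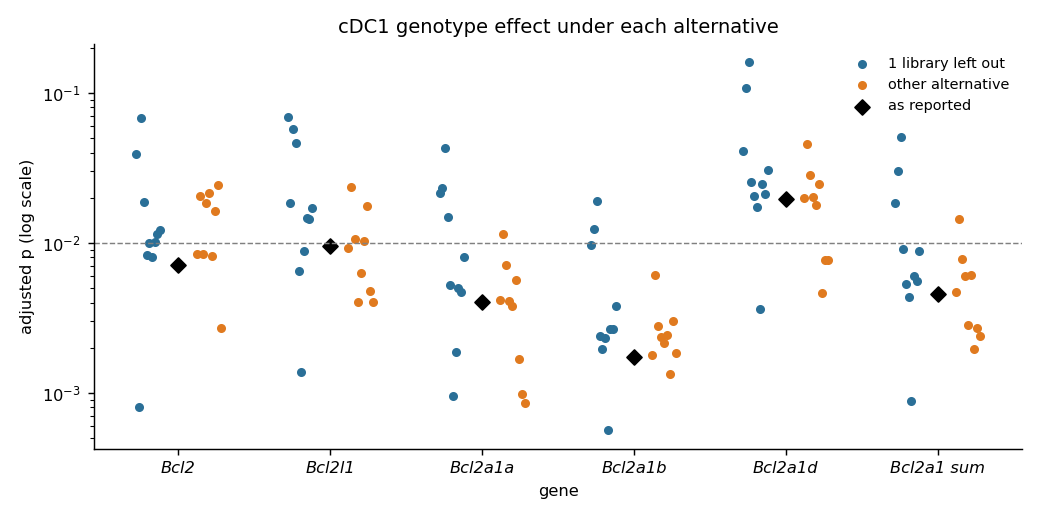
Adjusted p of the cDC1 genotype effect on a log axis for 5 members and the Bcl2a1 sum, where diamonds are the values reported, blue points are fits with 1 of the 10 cDC libraries left out, orange points are the other alternatives and the dashed line is 0.01. For Bcl2 and Bcl2l1 the points lie on both sides of the line under either kind of change, whereas those of Bcl2a1b lie below it apart from 2 fits with a library left out.

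The partners of the members were read from lists of related genes. Over all genes tested, 22.4% were called in either direction in cDC1s, 7.15% in cDC2s and 1.05% in pDCs. Calls of the listed genes were not repeated under other scalings. Bcl2l11 was at 13.6, 21.0 and 13.2 TPM in WT pDCs and at 33.3, 34.3 and 33.0 TPM in cKO pDCs, which was not called (1.06 ± 0.16, adjusted p = 0.0132). Every cKO value lay above every WT value, as was so for 10.8% of genes tested in pDCs. This fit did not pair the pDC libraries. The study, with its own test, reported Bcl2l11 as raised in every DC subset. Here Bcl2l11 was called higher in cDC1s (50.7 and 37.6 TPM in WT, 82.7 and 82.5 TPM in cKO, log2 fold change 0.90 ± 0.16) and in cDC2s (12.4, 13.9 and 15.7 TPM in WT, 71.7, 60.5 and 67.6 TPM in cKO, 2.17 ± 0.13). Of the 8 BH3-only genes, 6 were tested in each table. In cDC1s, Bcl2l11 was the 1 called higher and 2 were called lower, Pmaip1 (-2.30), whose product NOXA binds MCL1 and A1, and Bmf (-1.10). In cDC2s, Bcl2l11 was called higher and none lower, and in pDCs none was called, with 2 at an unadjusted p under 0.05. Of the effectors, Bak1 was called higher in cDC1s (0.52 ± 0.12) and Bax was not called in any subset. Of the 4 other BCL2-like genes, Bcl2l13 (0.53) was called higher and Bcl2l14 (-2.10) lower in cDC1s and none was called in cDC2s or pDCs.

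Genes that act upstream of the members, or that mark DC states in which the members are abundant, are given here as measured values. Of all genes tested, 15.8% were called higher and 6.56% lower in cDC1s. The shares were 3.59% and 3.56% in cDC2s, and 0.814% and 0.239% in pDCs. The calls below were not repeated under other scalings. Bcl2a1 and Bcl2l1 are known targets of NF-kB. Of its 5 subunit genes, Rel (-1.72 ± 0.35) and Relb (-1.56 ± 0.22) were called lower and Nfkb1 (0.86 ± 0.13) higher in cDC1s, and none was called in cDC2s or pDCs. Of the 12 markers of mature migratory DCs, a state reached after activation, 11 were called lower in cDC1s and 3 in cDC2s, and 1 of 9 tested was called higher in pDCs. Their summed level was 1977 to 2852 TPM in WT and 307 to 413 TPM in cKO cDC1s, 1098 to 1727 and 573 to 820.1 TPM in cDC2s, and 57.7 to 75.8 and 78.3 to 90.4 TPM in pDCs. Ccr7, the chemokine receptor that defines this state, was at 694 and 417 TPM in WT and 18.5 and 33.7 TPM in cKO cDC1s, and no marker of the list was at 0 in all libraries of a group. Between genotypes, these markers moved with Bcl2a1 and Bcl2l1 in cDC1s. Within WT cDC1s, Ccr7 and Bcl2l1 (15.6 against 12.8 TPM) were higher in library 1. The Bcl2a1 sum (1100.1 against 1278 TPM), Cd83, Cd80 and Il12b were higher in library 2. In cDC2s the summed marker ranges did not overlap between genotypes, whereas those of the Bcl2a1 sum did. In bulk samples fewer cells of a state and less RNA per cell cannot be told apart. The part of these markers in the Bcl2a1 and Bcl2l1 results was not tested. Of the 4 genes of receptors for DC survival cytokines, Csf2rb2 was called lower in cDC1s (-0.90) and none was called in cDC2s or pDCs.

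Markers of neutrophils, which also express Bcl2a1, were summed for the same reason. They were at 1.88 to 17.4 TPM in WT and 23.1 to 43.0 TPM in cKO cDC1s, and at 8.73 to 35.8 and 20.6 to 84.0 TPM in cDC2s. In pDCs they were at 9.07 to 29.7 TPM in WT and 30.3 to 139 TPM in cKO. The WT and cKO ranges did not overlap in cDC1s and pDCs and overlapped in cDC2s. None of the 5 neutrophil markers tested was called in any subset, and Ly6g was at 0 in all WT cDC libraries and Elane in both cKO cDC1 libraries. The part of these markers in the Bcl2a1 values was not tested.

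The genes most like the members across the 10 cDC libraries were ranked by Pearson's r of log2(TPM + 1) over 11408 genes. For the Bcl2a1 sum these were Use1 (r = 0.970), Pfdn5 (0.968) and H2-Aa (0.966). For Bcl2l1 they were Nipal1 (0.969), a gene without a matched symbol (identifier 11641, 0.958) and Bfar (0.957). For Mcl1 they were Ing2 (0.967), Ier2 (0.966) and Egr1 (0.959), and for Bcl2 they were Zdhhc20 (0.948), Ddx21 (0.948) and Stard4 (0.941). The 10 points come from 4 groups and share the differences between them, so these values are a description.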

How the data were processed

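Libraries of sorted splenic pDCs, cDC1s and cDC2s, each pooled from several mice and more of them for cKO, were sequenced as 50-base single-end reads. Per the study's methods and the submitters' processing notes, the authors aligned reads to mm10 (HISAT2 2.0.4, Bowtie2 2.2.5) and estimated expression with RSEM 1.2.12. They deposited TPM and FPKM per gene, separately for pDCs and cDCs. All 32 value columns were mapped to samples. Gene names came from RefSeq (17079 of 17128 and 17667 of 17721 identifiers matched).

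The test in the study's methods needs read counts, so it was replaced. Here log2(TPM + 1) of genes with a mean of at least 1 TPM was fitted with limma 3.58.1 (trend) in R 4.3.3, in pDCs over 6 and in cDCs over 10 libraries with a mean per group. Because TPM keeps no depth, reads per library were estimated from FPKM steps, where 50.9 to 59.9% of low values came within 0.1 of a whole read. At that depth 3 reads on a 2000-base transcript equal 0.141 to 0.183 TPM, and intervals were not formed. Code was tested on simulated data. The reported pDC tests did not pair the libraries. Same-numbered pDC libraries deviated together (r = 0.310, 0.392 and 0.206), so the replicate block was read as a paired fit there. It was run as an alternative only. The study describes the libraries as biological repeats, and p-values measure the spread between these pools of mice. Named genes are the 7 members, Trim33, Bcl2l11, up to 6 called genes of each list by size of change, and the 3 nearest by r to Bcl2, Bcl2l1, Mcl1 and the Bcl2a1 sum. Bax, the MCL1 turnover genes, Cd3d, Cd3e, Cd3g, Ly6g and Elane fall outside this rule and were named after their values were seen. The members and lists were chosen with earlier results of these data known. The alternatives were a pseudocount of 0.1, no filter, FPKM, median-of-ratios scaling, quantile normalization, no trend, a replicate block, each library left out, each cDC subset alone, and an adjusted p of 0.05 with no fold limit. The counts out of 19 for cDC1 effects leave out this last setting. They include a crossed cDC1 pairing, which was not planned and was chosen after the data were seen.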

Additional observations from a re-analysis of the deposited data

Results flagged for a closer look

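The genotype effect differed between cDC1s and cDC2s, tested as an interaction in limma, for 4 genes of the partner and mature DC lists. Of all 11411 genes tested, 292 (2.56%) were called for this difference, and none of the 7 prosurvival members. The difference of log2 fold changes was -1.68 for Bcl2l14 (adjusted p = 0.00296), -1.27 for Bcl2l11 (adjusted p = 0.00507), -3.45 for Ccl22 (adjusted p = 0.00102) and -4.05 for Il12b (adjusted p = 3.59e-04). For Bcl2l11 both effects were positive and the one in cDC2s was larger. The mature DC markers Serpinb6b and Cd83 had every cKO library above every WT library in pDCs and every cKO library below every WT library in both cDC subsets. Of all genes tested, 10.8% lay above in pDCs, and 24.1% lay below in cDC1s and 19.2% in cDC2s. Cd83 was low in pDCs, at 1.74 to 3.06 TPM in WT and 3.95 to 4.17 TPM in cKO. Of 9 mature DC markers tested in pDCs, 1 was called higher. The log2 fold changes of Serpinb6b were 1.33 in pDCs, -2.34 in cDC1s and -1.45 in cDC2s, and those of Cd83 were 0.51, -2.16 and -1.29. The pDC values come from another table, so these differences were not tested.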

How the results depend on the processing

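With no filter on low values, which adds genes to the adjustment, 1 member was called in cDC1s and 1 in cKO cDC1s against cDC2s, and the Bcl2a1 sum in cDC1s (-1.30) missed the threshold (adjusted p = 0.0143). With FPKM, 1 member was called in cKO cDC1s against cDC2s (the cause was not tested). With an adjusted p of 0.05 and no fold limit, 2 members were called in cDC2s, 1 for the difference of effects and 2 between WT subsets. Leaving out a library gave 0 to 5 members called in cDC1s, 1 to 3 between cKO subsets and 0 to 1 between WT subsets (Bcl2a1b without WT cDC2 library 3), with the sum at -1.57 to -1.02 in cDC1s and -1.77 to -1.22 between cKO subsets. In no alternative did the sum, or any called member effect, change sign. With the replicate block, 1 member was called between WT subsets, 3 in cDC1s and none in pDCs, and the pairing changed no member's call in pDCs. Same-numbered cDC libraries correlated at -0.233 in cDC1s and at -0.249, 0.253 and -0.165 in cDC2s, so cDC numbers were not read as pairs. A crossed cDC1 pairing, chosen after seeing the data, called 5 members and 2924 of all genes.
Reversals concerned uncalled effects near 0 (the cause was not tested). Mcl1 in pDCs went to 0.029 with FPKM, 0.038 with median of ratios and -0.052 to 0.063 without 1 library. The Mcl1 difference of effects went to -0.068, -0.19 and, with quantile normalization, -0.060, and to -0.066 to 0.13 without 1 library. Bcl2 between WT subsets went to 0.058 (median of ratios), 0.20 (quantile) and -0.61 to 0.40. Bcl2l1 between cKO subsets was 0.0067 with quantile normalization. Without 1 library, ranges crossing 0 were -0.036 to 0.13 for Bcl2l1 and -0.067 to 0.48 for Bcl2a1b in pDCs, -0.24 to 0.14 for Bcl2a1a in cDC2s and -0.019 to 0.36 between WT subsets, and -0.34 to 0.14 for Bcl2l2 between cKO subsets. Depth limits Bcl2a1a in pDCs, with at most 12.6 estimated reads, and the 2 libraries per cDC1 group limit the cDC1 tests.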
